A study of Mus musculus with 10 samples.

Results

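Mast cell proteases and the receptor *Kit* were followed through RNA-seq libraries of mouse intestinal organoids treated with DMBA, tamoxifen or both. The genes were taken by symbol: the chymases *Mcpt1*, *Mcpt2*, *Mcpt4* and *Cma1*, the tryptase *Tpsb2*, the carboxypeptidase *Cpa3*, *Kit*, and *Ms4a2*, which encodes the beta chain of the high-affinity IgE receptor. These are 8 of the 47069 genes with counts. All 8 passed the filter on low counts, among 16179 genes kept in all. The filter asked for 2 libraries at 1.02 CPM or more. *Cma1* and *Tpsb2* reached it in both DMBA+TAM libraries and in 1 library elsewhere, so they passed through the group in which they were high and had to differ there. Their values are given as a description, and no p-value in DMBA+TAM is quoted for them. *Mcpt4* and *Cpa3* reached it in 4 and 7 libraries outside DMBA+TAM. *Ms4a2* reached it in 1 DMBA+TAM library, which held 3 counts, and in 1 library elsewhere, so its passing rests in part on DMBA+TAM.

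By the study's account the organoids came from Lgr5-EGFP-CreERT2; Ppp2r1a fl/fl mice. The labels give the C57BL/6 strain and a culture of 50 days in Matrigel with Noggin, EGF and R-spondin-1, name intestine tissue as the source, and give no genotype. In these mice tamoxifen activates Cre in Lgr5+ stem cells, which deletes part of the gene for the scaffold subunit of the phosphatase PP2A. The control and DMBA groups carry the same floxed gene but received no tamoxifen. The 5 groups, of 2 libraries each, were saline (control), DMBA (a chemical carcinogen, labelled Long), Dosage-sensitive TAM labelled short (TAM short), Dosage-sensitive TAM labelled Long (TAM long), where TAM is tamoxifen, and DMBA with TAM (DMBA+TAM). The titles of both TAM groups begin with DSS and those of DMBA+TAM with Lgr5. What DSS stands for in these titles, what Dosage-sensitive, short and long refer to, and the dose of each agent in culture, are not given in the sources used here. No label says that the libraries of a group came from separate animals or cultures, so p-values measure only the spread between these libraries.

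Mast cells are tissue-resident immune cells that depend on stem cell factor acting on Kit and store proteases in their granules. In the mouse, mast cells of the gut mucosa are known for the chymases *Mcpt1* and *Mcpt2*, while those of connective tissue and the submucosa carry *Mcpt4*, *Cma1* and the tryptase *Tpsb2*, with *Cpa3* stored beside them. *Kit* is not confined to mast cells: interstitial cells of Cajal, the pacemakers of gut muscle, and some deep crypt secretory cells of the colon also express it.

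The 4 chymase genes lie in a cluster on chromosome 14 of GRCm38, with *Cma1* at 55941453 to 55944661, *Mcpt1* at 56017964 to 56020391, *Mcpt2* at 56042123 to 56044634 and *Mcpt4* at 56059744 to 56062310. *Tpsb2* is on chromosome 17 (25366550 to 25368094), *Cpa3* on chromosome 3 (20215620 to 20242181), *Kit* on chromosome 5 (75574916 to 75656722) and *Ms4a2* on chromosome 19 (11615523 to 11623719). All are annotated as protein-coding, and the counts are sums over exons. The first 60 coding bases of *Mcpt1*, *Mcpt2* and *Mcpt4*, read from GENCODE M21 transcripts, are shown because they start almost alike while the results set the genes apart; capitals mark bases that differ from *Mcpt1* at the same position.
Mcpt1: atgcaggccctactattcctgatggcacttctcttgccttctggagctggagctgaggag
Mcpt2: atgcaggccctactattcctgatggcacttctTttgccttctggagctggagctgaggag
Mcpt4: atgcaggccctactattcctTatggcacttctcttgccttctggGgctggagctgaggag
*Mcpt2* differed from *Mcpt1* at 1 of these 60 bases and *Mcpt4* at 2. Over the longest annotated coding sequence, *Mcpt1* was 86.8% identical to *Mcpt4* but 81.3% to its fellow mucosal chymase *Mcpt2* and 61.4% to *Cma1*. No stretch of 50 bases of *Mcpt1*, *Mcpt2*, *Tpsb2*, *Cpa3* or *Kit* was found in a transcript of another gene. For *Mcpt4*, 5.48% of such stretches also occurred in *Cma2* or *Mcpt9*, for *Cma1* 5.38% in *Gm48934*, and for *Ms4a2* 2.1% in *Ms4a4b*, so a small part of their reads is uncertain.

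The 250 bases upstream of the start site are printed for *Mcpt1*, for which no DMBA+TAM comparison passed in the fit over all groups, and for 3 of the 4 genes that were high there, from the RefSeq promoter table on GRCm38.p6. That table matched 6 of the 8 genes. Sequences run 5′ to 3′ on the strand of the gene, and capitals mark GATAA or its reverse complement TTATC, the core of GATA factor motifs.
Mcpt1 (chr14:56017714-56017963, plus strand): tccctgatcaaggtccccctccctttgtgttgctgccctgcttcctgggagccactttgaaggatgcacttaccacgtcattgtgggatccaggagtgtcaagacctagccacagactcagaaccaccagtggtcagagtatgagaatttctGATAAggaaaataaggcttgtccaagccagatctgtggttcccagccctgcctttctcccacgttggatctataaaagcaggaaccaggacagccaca
Mcpt4 (chr14:56062311-56062560, minus strand): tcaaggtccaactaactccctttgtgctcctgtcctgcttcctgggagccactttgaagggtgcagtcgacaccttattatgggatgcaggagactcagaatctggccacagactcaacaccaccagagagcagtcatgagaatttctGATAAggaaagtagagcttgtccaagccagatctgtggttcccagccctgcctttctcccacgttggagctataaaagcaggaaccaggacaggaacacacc
Cma1 (chr14:55944676-55944925, minus strand): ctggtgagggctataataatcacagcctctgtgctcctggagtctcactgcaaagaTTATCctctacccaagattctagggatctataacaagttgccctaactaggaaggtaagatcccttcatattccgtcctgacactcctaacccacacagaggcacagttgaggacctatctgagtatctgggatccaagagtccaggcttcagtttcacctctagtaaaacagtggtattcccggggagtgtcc
Cpa3 (chr3:20242182-20242431, minus strand): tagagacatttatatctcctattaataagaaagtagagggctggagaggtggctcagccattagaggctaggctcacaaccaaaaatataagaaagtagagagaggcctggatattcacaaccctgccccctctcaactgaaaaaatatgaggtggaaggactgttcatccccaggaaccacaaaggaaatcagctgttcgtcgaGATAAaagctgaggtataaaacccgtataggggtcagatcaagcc
GATAA, searched on both strands, was found once in each of these 4 windows, 3 times in that of *Ms4a2* and not in that of *Kit*. It lay 98 bases upstream of the start in *Mcpt1* and 102 bases in *Mcpt4*. It was found in 22.5% of the 32536 windows of the same length. TATAAA, likewise on both strands, lay 28, 32 and 31 bases upstream of the start in *Mcpt1*, *Mcpt4* and *Cpa3*, with another match on the opposite strand 242 bases upstream in *Cpa3*. It was not in the windows of *Cma1*, *Kit* or *Ms4a2* and was found in 12.3% of all windows. The *Mcpt1* and *Mcpt4* windows were 81% identical, against 48.5% for *Mcpt1* and *Cma1*.

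The 8 libraries outside DMBA+TAM held 8828247 to 10923673 counts, and those of DMBA+TAM 1592366 and 1915270. At these depths 3 counts, taken as the floor, stand for 0.259 to 0.379 normalized CPM (counts scaled to library totals adjusted by TMM) and for 1.58 and 1.32 in DMBA+TAM. *Ppp2r1a*, the gene that Cre deletes in part, ranged from 123 to 169 normalized CPM over the 10 libraries, and its counts over all exons do not check the deletion. The DMBA+TAM libraries stand apart, although the labels call every library an intestinal organoid. All 8 markers of intestinal epithelium were called lower than in control, beside 35.3% of all tested genes. Their sum was 21.1 and 31.7 normalized CPM against 17798 and 18434. This difference in make-up and depth goes with every DMBA+TAM result below and cannot be told apart from the treatment. Fewer cells of a type and less RNA per cell cannot be told apart in bulk RNA. *Gata1*, a defining transcription factor of mast cells, had 2 counts in a single TAM short library and 0 in the other 9, and it was not tested.

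The connective tissue proteases and *Cpa3* were at 2.47 normalized CPM or less in 8 libraries and at 15.3 or more in both DMBA+TAM libraries. *Mcpt4*, a chymase of connective tissue mast cells, had 0.226 and 1.08 normalized CPM in control, 1.52 and 2.02 in DMBA, 1.47 and 0.757 in TAM short, 0.345 and 1.18 in TAM long, and 18.5 and 41 in DMBA+TAM. *Cma1*, another chymase of these cells, had 0.113 and 0.361 in control, 0.893 and 1.91 in DMBA, 0 and 0.126 in TAM short, 0.0863 and 0.884 in TAM long, and 17.9 and 47.6 in DMBA+TAM. In both genes every DMBA+TAM library lay above all 8 others.

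*Tpsb2*, a tryptase, had no count in either control library, 5 and 7 counts in DMBA, 0 and 1 in TAM short, 0 and 14 in TAM long, and 40 and 100 in DMBA+TAM. On the normalized scale the DMBA+TAM libraries had 21.1 and 44.1 CPM, against at most 1.38 elsewhere. *Cpa3*, a carboxypeptidase stored in the granule, had 1.36 and 1.08 normalized CPM in control, 2.05 and 2.47 in DMBA, 1.47 and 1.26 in TAM short, 1.29 and 1.87 in TAM long, and 15.3 and 37.9 in DMBA+TAM. Again the DMBA+TAM libraries were above all others, and replicate 2 was the higher of them.

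Against control, *Mcpt4* rose in DMBA+TAM by 5.50 on the log2 scale (standard error 0.70, edgeR adjusted p = 7.12e-05) and *Cpa3* by 4.44 (standard error 0.48, edgeR adjusted p = 2.2e-05). *Cma1* had 142 counts in the DMBA+TAM libraries against 4 in the controls, a ratio of 146 with a 95% counting interval of 55.9 to 544. *Tpsb2* was at least 93-fold higher, computed against 3 counts per control library, or 60.3-fold without DMBA+TAM replicate 2. Of the 8 genes, 4 were called higher, among them *Cma1* and *Tpsb2*, and 1 lower, beside 29% of all tested genes called higher and 35.3% called lower in this comparison. Their median was 2.75 on the log2 scale, also with *Tpsb2* and *Mcpt2* at their bounds, and the median over all genes tested was -0.17. Since the filter kept *Cma1* and *Tpsb2* for their DMBA+TAM level, these counts and medians support nothing beyond the values of each gene.

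*Mcpt4* and *Cpa3* also rose when DMBA+TAM was set against each of the other groups, in comparisons that share the DMBA+TAM libraries, and *Cma1* and *Tpsb2* were higher there by the values below. Against DMBA, 4 of 8 genes were higher and 2 lower, beside 25.2% and 29.9% of all genes; *Mcpt4* differed by 4.08 on the log2 scale and *Cpa3* by 3.56 (edgeR adjusted p = 0.000325 and 8.57e-05), *Cma1* by 4.57 and *Tpsb2* by 5.73. Against TAM long, 4 were higher and 2 lower, beside 25.3% and 29.9% of all genes, with differences of 5.30 in *Mcpt4* and 4.08 in *Cpa3* (edgeR adjusted p = 9.49e-05 and 3.95e-05), 6.10 in *Cma1* and 5.60 in *Tpsb2*. Against TAM short, 4 were higher and 1 lower, beside 29.3% and 33.8% of all genes; *Mcpt4* differed by 4.71 and *Cpa3* by 4.28 (edgeR adjusted p = 0.000139 and 2.82e-05), while *Cma1* and *Tpsb2* had 1 count each in the TAM short libraries and ratios of 572 (interval 101 to 22752) and 564 (interval 99.6 to 22434). Their medians were 1.87, 2.54 and 2.20 on the log2 scale in these comparisons, also with *Mcpt2* at its bound, against -0.14 over all genes in each. The calls of *Mcpt4* and *Cpa3* in these 4 comparisons held in every alternative fit, but the size of the difference moved by over 1.5 times without single libraries. Without DMBA+TAM replicate 2, *Mcpt4* ranged from 3.38 (against DMBA) to 4.78 (against control) and *Cpa3* from 2.75 to 3.61 in the same way. *Mcpt4* was also at 4.74 and 6.92 against control without control replicate 1 and 2, and at 4.63 and 6.36 against TAM long without TAM long replicate 1 and 2. Against TAM long without its replicates 1 and 2, *Cma1* was at 5.18 and 8.32. *Tpsb2* was at 4.54 without replicate 1 and has no count left in TAM long without replicate 2. Without DMBA+TAM replicate 2, *Cma1* was at 6.15, 3.69 and 5.22 against control, DMBA and TAM long, and *Tpsb2* at 5.09 and 4.96 against DMBA and TAM long.

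**Figure D1:**
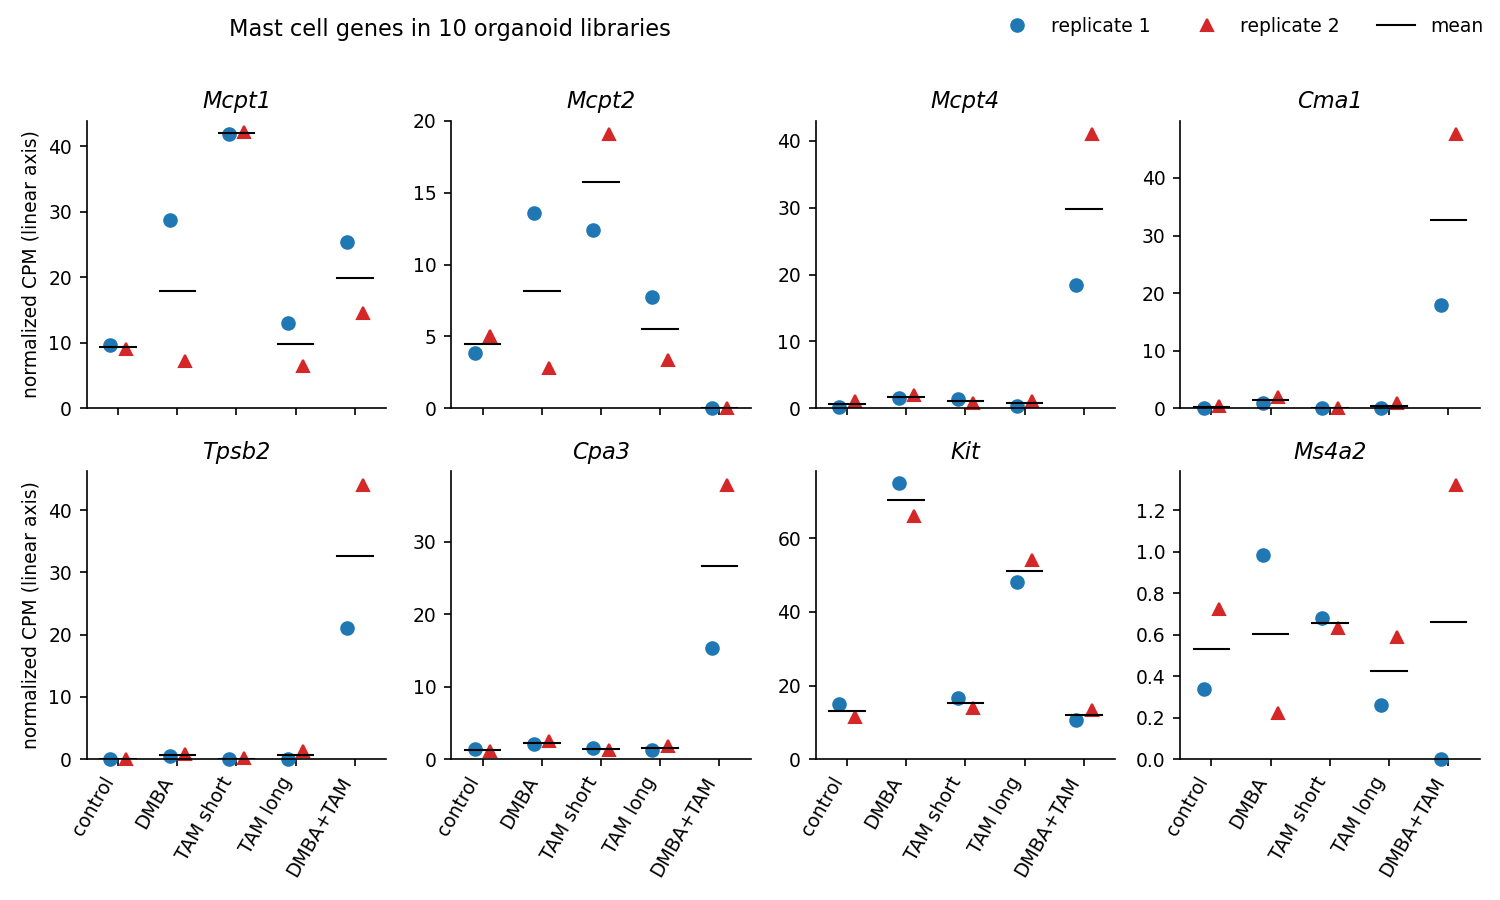
Normalized CPM (linear axes, a scale of its own in each panel) of 8 mast cell genes in the 10 libraries; circles are replicate 1, triangles replicate 2 and lines the mean of a group. *Mcpt4*, *Cma1*, *Tpsb2* and *Cpa3* reach 15.3 to 47.6 in DMBA+TAM and at most 2.47 elsewhere, *Mcpt2* is at 0 there, and *Kit* is highest in DMBA and TAM long.

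The mucosal chymases had other patterns. *Mcpt1* had 9.72 and 9.03 normalized CPM in control, 28.8 and 7.19 in DMBA, 41.8 and 42.1 in TAM short, 13 and 6.49 in TAM long, and 25.3 and 14.5 in DMBA+TAM. The TAM short libraries were above all others, DMBA+TAM lay above control without reaching TAM short, and DMBA and TAM long each had a high replicate 1 and a replicate 2 below the controls. *Mcpt2*, the other chymase of mucosal mast cells, had 3.84 and 5.06 in control, 13.6 and 2.81 in DMBA, 12.4 and 19.1 in TAM short, 7.76 and 3.34 in TAM long, and no count in either DMBA+TAM library.

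*Mcpt1* rose in TAM short against control by 2.16 on the log2 scale (standard error 0.54, edgeR adjusted p = 0.0268), the only call among the 8 genes in this comparison, 1 higher and 0 lower beside 6.52% of all genes higher and 7.8% lower. *Mcpt2* was higher there by 1.82 (standard error 0.66, edgeR adjusted p = 0.105), which missed the threshold although both TAM short libraries exceeded both controls. It passed without a filter on low counts (edgeR adjusted p = 2.88e-08), with only the 2 groups compared (0.000172) and without DMBA replicate 1 or 2 (0.0155 and 0.0141), and ranged from 1.48 to 2.10 when a library was left out. The *Mcpt1* call was lost when any of the 4 libraries compared was left out (edgeR adjusted p from 0.106 to 0.178), with a log2 fold change still at 2.11 to 2.21, and in limma on log2(FPKM + 1) (adjusted p = 0.054) or log2(FPKM + 0.1) (adjusted p = 0.0624). *Mcpt4* (0.79), *Cpa3* (0.16) and *Kit* (0.22) missed the threshold in TAM short (edgeR adjusted p from 0.469 to 0.887); *Mcpt4* was at 0.0529 without control replicate 1, 0.22 without TAM short replicate 1 and 2.24 without control replicate 2. *Cma1* and *Tpsb2* were at or under 3 counts in every library of both groups. Over the 8 genes the median in TAM short was 0.55, or 0.26 with *Tpsb2* at its bound, against -0.04 over all genes.

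TAM long and TAM short, both tamoxifen groups, differed in *Mcpt1*: it was lower in TAM long by 2.10 on the log2 scale, or -2.10 (standard error 0.53, edgeR adjusted p = 0.0107), the single gene of the 8 called lower, beside 20.3% of all genes called lower and 22% called higher. *Mcpt2* was at -1.49 in that comparison (standard error 0.63, edgeR adjusted p = 0.0887), *Mcpt4* at -0.59 and *Cpa3* at 0.20 (edgeR adjusted p = 0.58 and 0.788). *Mcpt2* passed there without a filter (edgeR adjusted p = 1.1e-06), with only the 2 groups compared (0.0183) and without DMBA replicate 1 or 2 (0.012 and 0.0115), and ranged from -2.24 without TAM long replicate 1 to -1.03 without TAM long replicate 2. *Cma1* had a ratio of 7.71 (counting interval 1.10 to 334, edgeR adjusted p = 0.212) and *Tpsb2* one of 10.8 (1.64 to 456, edgeR adjusted p = 0.191), each against 1 count in TAM short. Both passed without a filter (edgeR adjusted p = 0.0464 and 0.00704), and *Tpsb2* also without TAM long replicate 1 (0.0271), while without TAM long replicate 2 it was at -2.24 (0.513). The *Mcpt1* call was lost without TAM short replicate 2 and without TAM long replicate 2, with log2 fold changes of -2.10 and -1.70. With each library left out in turn, *Mcpt1* ranged from -2.70 to -1.70. In TAM short against control, 3 of 6 genes of all leukocytes and 3 of 7 T cell genes passed the test upward, beside 6.52% of all genes. The summed levels of these 2 lists were 269 to 299 and 105 to 107 normalized CPM, against 77.1 to 142 and 49.4 to 60.6. Of 8 macrophage genes 2 passed upward, and of 3 basophil, 4 neutrophil and 2 eosinophil genes none did. In TAM long against TAM short itself, 6 of the 6 leukocyte genes and 7 of the 7 T cell genes were called lower, with medians of -1.50 and -2.76, beside 20.3% of all genes, and their sums in TAM long were 82.2 to 95.8 and 16.9 to 23.3 normalized CPM. No gene of the all-leukocyte and T cell lists is at 0 in TAM short, and the part of these cells in the *Mcpt1* result was not tested.

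Against control, *Mcpt1* in DMBA+TAM was at 1.07 (standard error 0.62, edgeR adjusted p = 0.154), and both DMBA+TAM libraries lay above both controls. It passed with only the 2 groups compared (edgeR adjusted p = 0.0051), without a filter on low counts (0.000166) and without DMBA replicate 1 or 2 (0.0266 and 0.0261). *Mcpt2* fell at least 3.06-fold below control (edgeR adjusted p = 0.0373). Against DMBA, TAM long and TAM short, *Mcpt1* in DMBA+TAM was at 0.12, 1.01 and -1.09 (edgeR adjusted p from 0.123 to 0.883). Against DMBA the sign turned with the library left out, from 1.45 without DMBA replicate 1 (edgeR adjusted p = 0.0196) to -0.57 without DMBA replicate 2 (0.232) and -0.33 without DMBA+TAM replicate 1 (0.761). Against TAM long and TAM short it passed without DMBA replicate 1 (edgeR adjusted p = 0.0338 and 0.0118), without DMBA replicate 2 (0.0356 and 0.0114) and without a filter (0.000331 and 1.94e-06), and against TAM short also with only the 2 groups (0.00206) and with the replicate block (0.0412). At the depth of these libraries 0 counts of *Mcpt2* allow up to 1.58 and 1.32 normalized CPM. *Mcpt2* was at least 5.64-fold lower than in DMBA (edgeR adjusted p = 0.015), 3.82-fold lower than in TAM long (edgeR adjusted p = 0.0291) and 10.8-fold lower than in TAM short (edgeR adjusted p = 0.00412). The bound against DMBA was 1.93-fold without DMBA replicate 1 and 9.34-fold without DMBA replicate 2, and that against TAM long 2.30-fold without TAM long replicate 1. The call against control was lost with plain library totals (edgeR adjusted p = 0.0722) and without any of the 4 libraries compared (edgeR adjusted p from 0.0564 to 0.142). That against TAM short held in every fit, and those against DMBA and TAM long were lost without a DMBA+TAM library (edgeR adjusted p from 0.0616 to 0.126) and, for TAM long, without its replicate 1 (0.0729).

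Within the mucosal pair, *Mcpt2* made up 22.9% to 37.3% of the counts of *Mcpt1* and *Mcpt2* in the 8 libraries outside DMBA+TAM. The lowest of these shares had a 95% Wilson interval of 19.4% to 26.9% and the highest one of 31.5% to 43.6%. In DMBA+TAM it was 0 of 48 counts and 0 of 33, which by 3 counts of the total allow shares of up to 6.25% and 9.09%; the upper Wilson limits are 7.41% and 10.4%. All these limits lie below all 8 other shares, and they cover counting error only, since reads without molecular identifiers are not independent molecules.

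The make-up of the proteases was compared per length, as the share of *Mcpt1* and *Mcpt2* in the summed FPKM (reads scaled by gene length and library size) of the 5 chymases and tryptases. This mucosal share was 97.6% and 90.7% in control, 93.8% and 68.5% in DMBA, 97.3% and 98.4% in TAM short, 98% and 74.8% in TAM long, and 31% and 10.1% in DMBA+TAM. The lowest of the 8 other libraries was thus still above the higher DMBA+TAM library. The group means were 94.1% ± 4.84 in control, 81.1% ± 17.9 in DMBA, 97.8% ± 0.763 in TAM short, 86.4% ± 16.4 in TAM long and 20.5% ± 14.8 in DMBA+TAM (SD, n = 2 each); the smallest p that an exact two-sided permutation test of 2 against 2 allows is 0.33, and none was run.

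The shares rest on 123 to 506 protease counts per library. By counts they were 30.6% (95% Wilson interval 23.9% to 38.2%) and 9.88% (7.12% to 13.6%) in DMBA+TAM, and 67.9% (59.5% to 75.3%) in the lowest other library, DMBA replicate 2. The summed FPKM of the 5 proteases was 11.8 and 12.8 in control, 50 and 14 in DMBA, 49.4 and 55.3 in TAM short, 22.4 and 13.6 in TAM long, and 94.6 and 167 in DMBA+TAM. All 8 libraries of the treated groups were above both controls in this sum, and TAM short and DMBA+TAM had opposite make-up. On normalized CPM the sums were 13.9 and 15.5 in control, 55.7 and 62.2 in TAM short and 82.9 and 147 in DMBA+TAM, and the second libraries of DMBA and TAM long, at 14.7 and 13.3, were not above both controls.

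**Figure D2:**
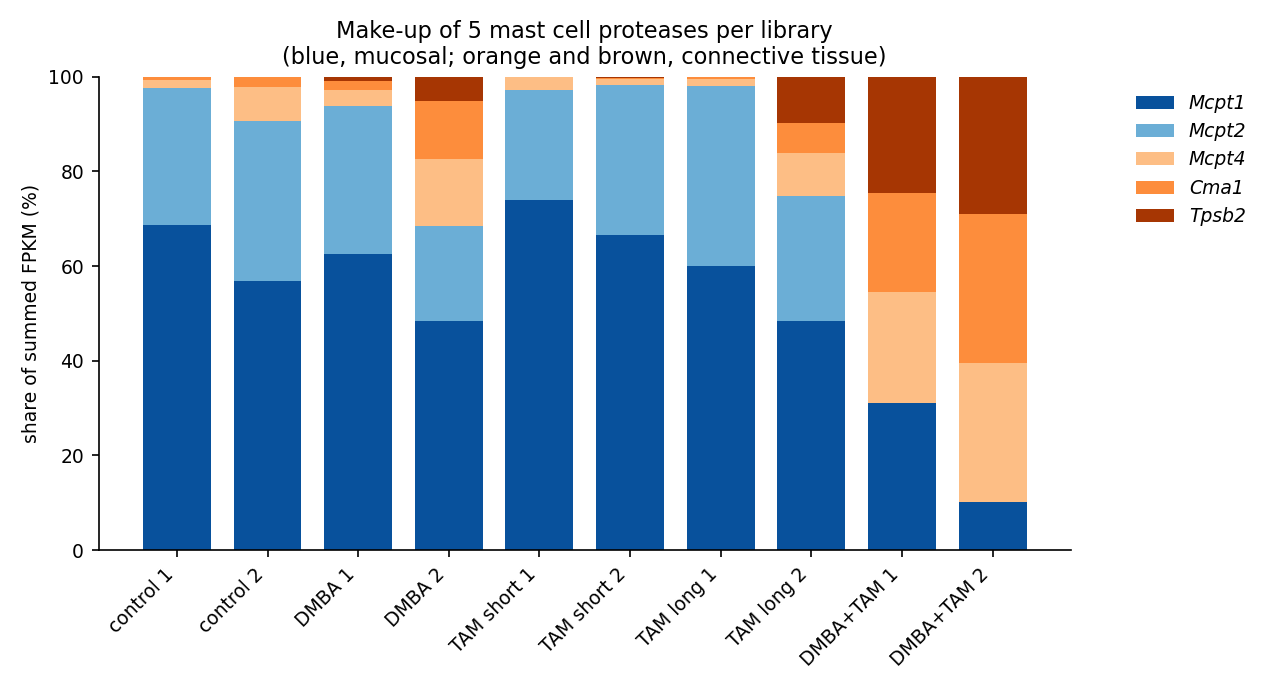
Share (%) of each of 5 mast cell proteases in their summed FPKM, 1 bar per library, with mucosal chymases in blue and connective tissue proteases in orange and brown. The mucosal share is 68.5% to 98.4% in 8 libraries and 31% and 10.1% in DMBA+TAM, where *Mcpt2* is at 0 and the 3 connective tissue genes each hold 21% to 31.5%.

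*Kit* had a pattern of its own. Its level was 14.9 and 11.3 normalized CPM in control, 75 and 66 in DMBA, 16.7 and 13.9 in TAM short, 48.2 and 54.1 in TAM long, and 10.6 and 13.2 in DMBA+TAM. In order of the means, DMBA (70.5 ± 6.34, SD, n = 2) stood above TAM long (51.1 ± 4.13) without overlap and TAM long above TAM short (15.3 ± 2.01), whereas TAM short, control and DMBA+TAM overlapped their neighbours.

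*Kit* rose in DMBA against control by 2.42 on the log2 scale (standard error 0.18, edgeR adjusted p = 5.72e-06), the 1 call higher among the 8 genes with 0 lower, beside 24.5% of all genes higher and 23.3% lower. It rose in TAM long by 1.96 (standard error 0.17, edgeR adjusted p = 2.06e-05), again 1 higher and 0 lower, beside 23.2% and 22.8% of all genes. The library names of DMBA and TAM long carry the letter L and those of control S. No untreated group carries L, so what the letters stand for cannot be told apart from the treatments here. The median over the 8 genes was 1.19 in DMBA, or 0.93 with *Tpsb2* at its bound, and 0.34 in TAM long, against 0.07 and 0.05 for all genes. Of the others in DMBA, *Cma1* had a ratio to control of 5.76 (counting interval 2.01 to 22.6, edgeR adjusted p = 0.0822), *Tpsb2* was at least 1.76-fold higher (edgeR adjusted p = 0.11, passing at 0.0466 with the replicate block, 0.000677 without a filter, and 0.027 and 0.0268 without TAM long replicate 1 or 2), and *Mcpt4* (1.42), *Mcpt1* (0.95) and *Mcpt2* (0.90) also missed the threshold (edgeR adjusted p = 0.156, 0.174 and 0.293). The *Cma1* difference passed in DESeq2 (adjusted p = 0.0328), with the replicate block (edgeR adjusted p = 0.0108) and without a filter (edgeR adjusted p = 0.000929). *Mcpt1* and *Mcpt2* passed without DMBA replicate 2, at 1.61 and 1.60 (edgeR adjusted p = 0.00373 and 0.0198), and turned in sign without DMBA replicate 1, to -0.41 and -0.68 (edgeR adjusted p = 0.463 and 0.389). Without a filter *Mcpt1*, *Mcpt2* and *Mcpt4* passed (edgeR adjusted p = 0.0001, 0.0115 and 0.0264), and *Mcpt4* was at 0.68 without control replicate 1 and 2.86 without control replicate 2. In TAM long, *Cma1* had a ratio of 1.97 (0.568 to 8.60), *Tpsb2* was at least 1.96-fold higher (3.93-fold without TAM long replicate 1), *Mcpt1* was at 0.06, *Mcpt2* at 0.33 and *Mcpt4* at 0.20 (edgeR adjusted p from 0.0988 to 0.934). All 14 *Tpsb2* counts of TAM long are in replicate 2, so none is left without it, while without replicate 1, with the replicate block or without a filter *Tpsb2* passed (edgeR adjusted p = 0.0125, 0.0493 and 0.000358).

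TAM long exceeded TAM short in *Kit* by 1.74 (standard error 0.17, edgeR adjusted p = 6.08e-05), the 1 gene called higher of the 8, beside 22% of all genes, with a median of -0.19 against 0.05.

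DMBA+TAM was lower than DMBA in *Kit* by 2.56 (-2.56, standard error 0.21, edgeR adjusted p = 4.23e-06) and lower than TAM long by 2.09 (-2.09, standard error 0.21, edgeR adjusted p = 1.66e-05). Against control it was at -0.14 (standard error 0.22, edgeR adjusted p = 0.618) and against TAM short at -0.36 (edgeR adjusted p = 0.182), with signs that turned under plain library totals (0.36 and 0.05). The 5 calls of *Kit* held in all 85 alternative fits. Against DMBA and TAM long, the DMBA+TAM libraries thus held less *Kit* and more of the connective tissue proteases.

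**Figure D3:**
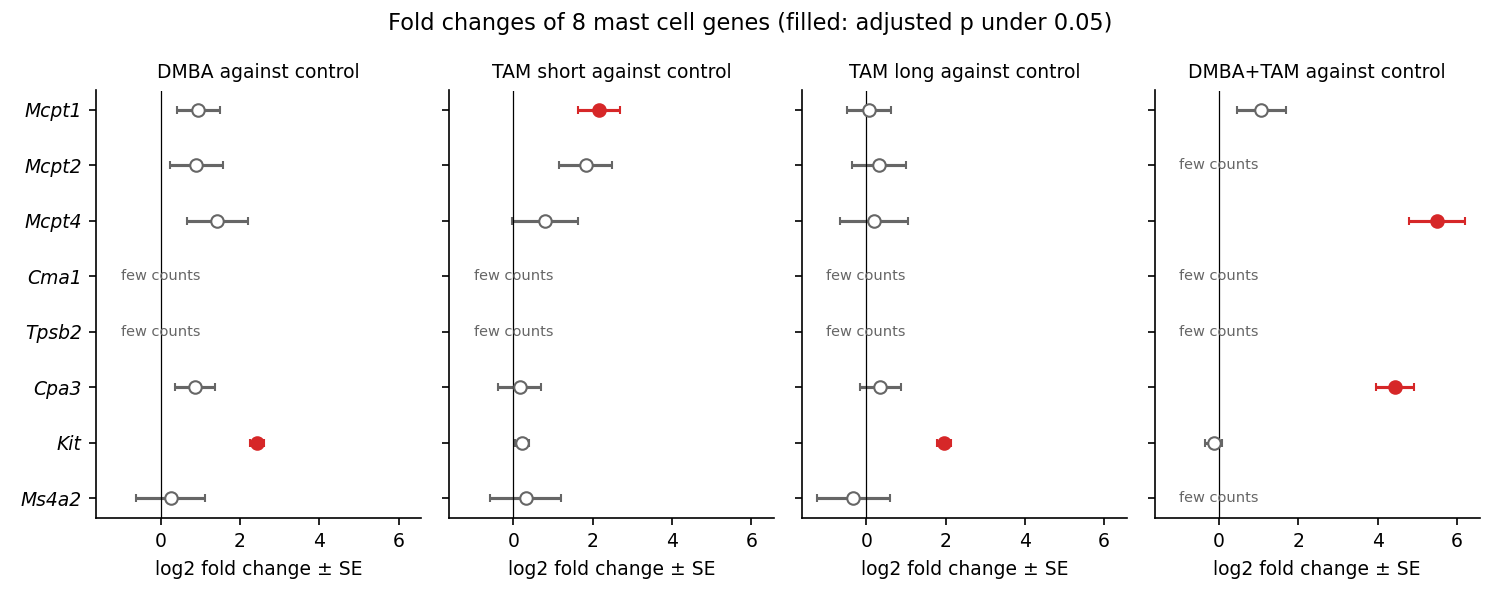
Log2 fold change (TMM-normalized counts, points) with its standard error (bars) of the 8 genes in each treated group against control; filled points passed the adjusted p threshold of 0.05, and few counts marks comparisons in which a group had 3 counts or fewer per library. *Kit* is past the threshold in DMBA and TAM long, *Mcpt1* in TAM short, *Mcpt4* and *Cpa3* in DMBA+TAM.

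The DMBA and TAM long libraries share more than *Kit*. Their names carry the letter L and their labels the word Long. The names of control and TAM short carry S, and the TAM short label the word short. DMBA or TAM long against control, and TAM long against TAM short, thus also set L names against S names. That difference cannot be told apart from the treatments. What long and short refer to is not given in the sources used here. All 6 genes of an interstitial cell of Cajal list, *Kit* among them, were higher than control in both groups, beside 24.5% of all genes in DMBA and 23.2% in TAM long; *Ano1*, the calcium-activated chloride channel of these cells, had 12.3 and 13 normalized CPM in control, 97.4 and 184 in DMBA, 53.8 and 109 in TAM long and 2.11 and 3.97 in DMBA+TAM. In DMBA+TAM against control that list was 3 higher and 2 lower, beside 29% and 35.3% of all genes: *Etv1*, *Prkg1* and *Thbs4* rose, by 1.88, 2.06 and 2.67 (edgeR adjusted p = 0.0014, 0.00152 and 0.0391). Of 7 genes of colonic deep crypt secretory and goblet cells, again with *Kit*, 6 were higher in DMBA with none lower (24.5% and 23.3% of all genes), and 5 higher with 1 lower in TAM long (23.2% and 22.8%); *Spdef*, a goblet cell transcription factor, had 18.7 and 14.9 in control, 112 and 95.4 in DMBA, 83 and 73.7 in TAM long and 0 and 1.32 in DMBA+TAM.

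The summed levels of the Cajal list were 45.2 to 55.4 normalized CPM in control, 299.7 to 538 in DMBA, 33.6 to 43.3 in TAM short, 192 to 329 in TAM long and 59.6 to 99.6 in DMBA+TAM. Those of the colonic list were 5677 to 6115, 31170 to 83442, 8451 to 9961, 18211 to 28249 and 53.3 to 66.5. No gene of either list was at 0 in both libraries of a group. *Cpa3*, which mast cells express beside *Kit*, was at 0.87 in DMBA with both libraries above both controls (edgeR adjusted p = 0.18) and at 0.36 in TAM long (edgeR adjusted p = 0.601). The part of these other cell types in the *Kit* result was not tested.

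By the deposited FPKM, *Kit* stood at 4.29 and 4.07 times *Cpa3* in control, 4.44 and 4.29 in TAM short, 14.2 and 10.4 in DMBA, 14.5 and 11.3 in TAM long, and 0.269 and 0.136 in DMBA+TAM. Control and TAM short were alike in this ratio, DMBA and TAM long higher, and DMBA+TAM was the group with less *Kit* than *Cpa3*. *Mcpt1* stood at 6.44 and 7.49 times *Cpa3* in control, 25.6 and 30 in TAM short, 12.6 and 2.61 in DMBA, 9.05 and 3.12 in TAM long, and 1.49 and 0.345 in DMBA+TAM. Counts scaled by the annotated gene length and library total give the deposited FPKM of *Mcpt1*. For *Cpa3* and *Kit* they give lower values than those deposited. The size of these ratios thus depends on the length used for each gene, while their order between libraries does not.

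**Figure D4:**
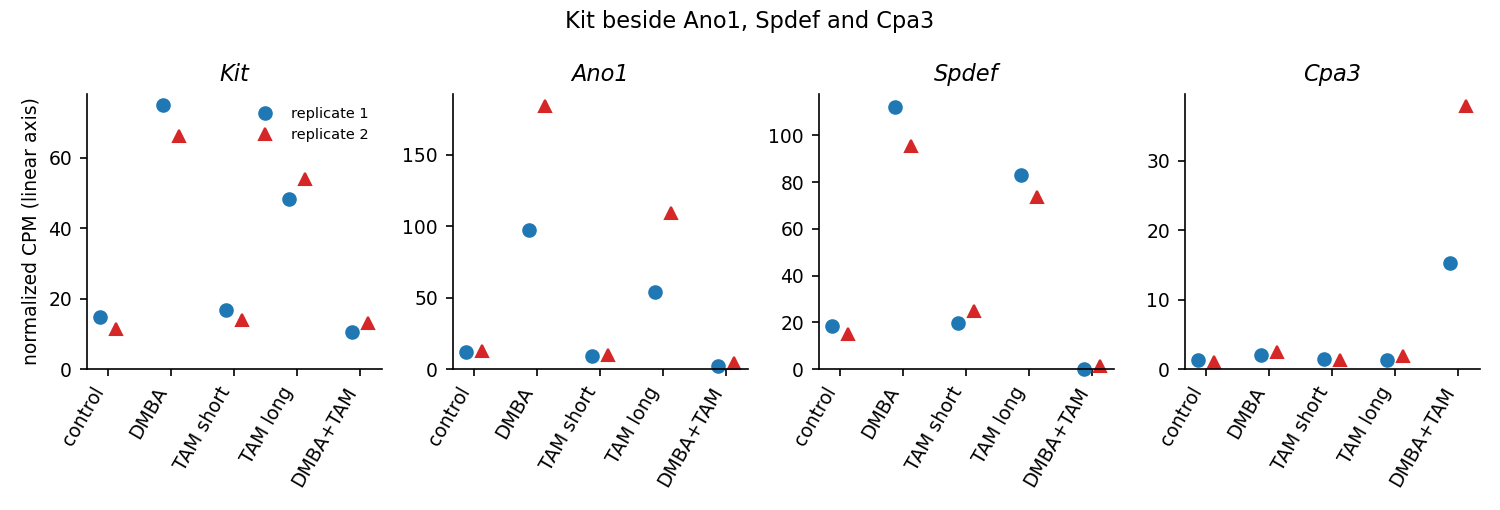
Normalized CPM (linear axes) of *Kit*, *Ano1* (interstitial cells of Cajal), *Spdef* (goblet cells) and *Cpa3* (mast cells) in the 10 libraries; circles are replicate 1 and triangles replicate 2. *Kit*, *Ano1* and *Spdef* are high in DMBA and TAM long, and *Cpa3* is high in DMBA+TAM.

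*Ms4a2* was close to the floor throughout, with 3 and 6 counts in control, 11 and 2 in DMBA, 6 and 5 in TAM short, 3 and 6 in TAM long, and 0 and 3 in DMBA+TAM. No comparison passed the threshold (edgeR adjusted p from 0.605 to 0.94), and in DMBA+TAM against control the ratio of 1.37 had a counting interval of 0.239 to 5.50. A difference of the size seen for *Mcpt4* or *Cpa3* lies outside that interval, which covers counting error only. With a library left out, *Ms4a2* ranged there from -5.24 to 1.28 on the log2 scale. *Fcer1a*, the alpha chain of the same receptor, had 2.11 and 1.76 normalized CPM in DMBA+TAM, from 4 counts each, against 0.113 and 0.361 in control. These 4 counts lie close to the floor of 3, and 1 library outside DMBA+TAM also reached the filter level of 1.02 CPM. Like *Cma1* and *Tpsb2*, *Fcer1a* passed the filter only through DMBA+TAM, so no p-value is given.

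Libraries of a group differed in several of these genes. The intervals below cover counting error only and treat reads as independent molecules, so they are a description of these libraries. In DMBA, replicate 2 held 0.249 times the *Mcpt1* of replicate 1 (exact 95% counting interval 0.187 to 0.326) and 0.206 times its *Mcpt2* (0.129 to 0.316), while *Mcpt4* was at 1.33 times (0.645 to 2.74) and *Cpa3* at 1.20 times (0.637 to 2.25). In TAM long the mucosal pair was again lower in replicate 2, at 0.498 (0.367 to 0.669) and 0.43 (0.281 to 0.645), and *Cma1* higher, with 9 counts against 1. *Tpsb2* had 14 counts in TAM long replicate 2 and none in replicate 1, a ratio of at least 3.78 by the same interval.

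In DMBA+TAM, replicate 2 held 2.21 times the *Mcpt4* of replicate 1 (1.48 to 3.36), 2.64 times the *Cma1* (1.78 to 4.01), 2.08 times the *Tpsb2* (1.43 to 3.08) and 2.47 times the *Cpa3* (1.60 to 3.90), but 0.571 times the *Mcpt1* (0.355 to 0.909). The intervals of *Mcpt4*, *Cma1*, *Tpsb2* and *Cpa3* overlap each other, and *Mcpt1* had a ratio below 1. *Ptprc*, the pan-leukocyte antigen CD45, was at 0.935 (0.813 to 1.08) and the macrophage gene *C1qa* at 0.955 between the same libraries. In DMBA *Ptprc* went the other way from the mucosal pair, at 2.24 (1.86 to 2.70).

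**Figure D5:**
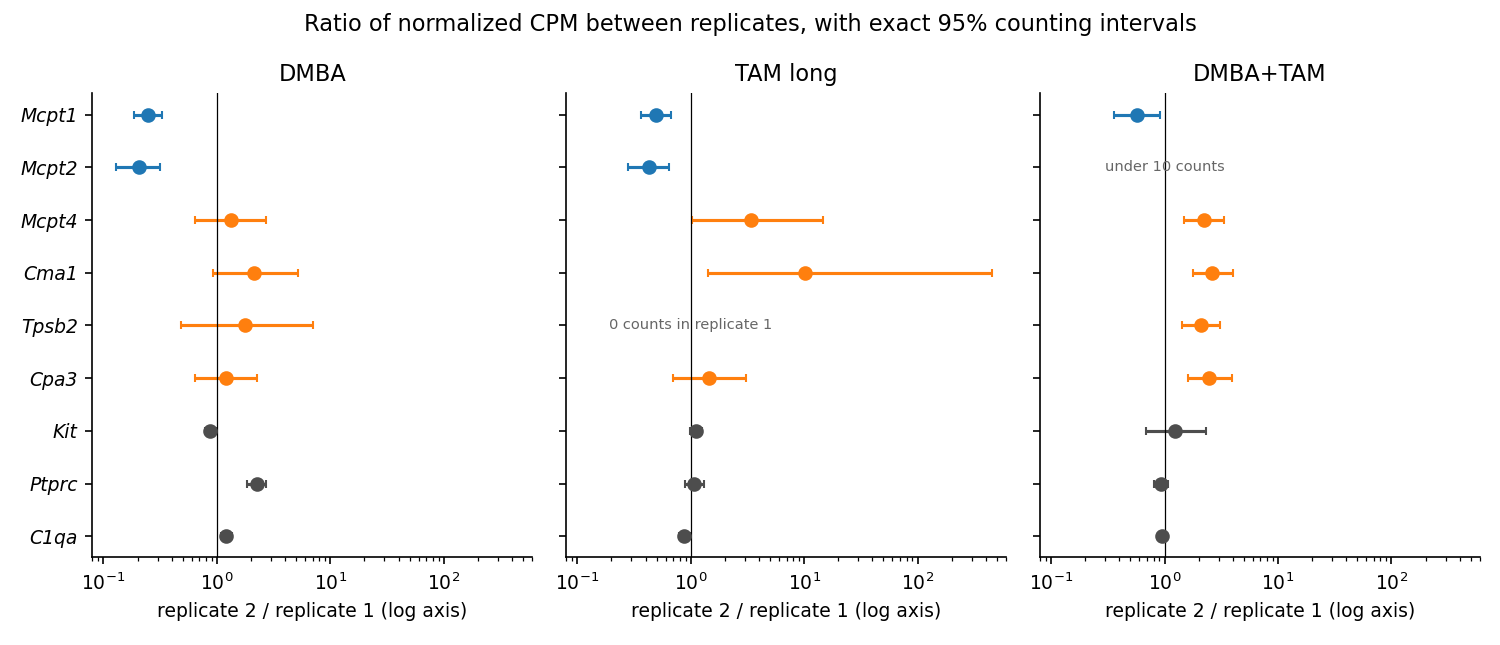
Replicate 2 over replicate 1 in normalized CPM (log axis), with exact 95% counting intervals (bars), in DMBA, TAM long and DMBA+TAM; mucosal chymases are blue, connective tissue proteases and *Cpa3* orange, and *Kit*, *Ptprc* and *C1qa* grey. *Mcpt1* lies below 1 in all 3 groups and *Mcpt2* in DMBA and TAM long, while in DMBA+TAM *Mcpt4*, *Cma1*, *Tpsb2* and *Cpa3* lie between 2.08 and 2.64.

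Across the 10 libraries, on log2 CPM, *Mcpt4*, *Cma1*, *Tpsb2* and *Cpa3* had Pearson correlations of 0.949 to 0.979 with each other and of -0.854 to -0.918 with *Mcpt2*. *Mcpt1* was at 0.241 with *Mcpt2*, and *Kit* at -0.2 to -0.328 with the connective tissue genes and *Cpa3*. These are descriptions over libraries that differ in depth and in which DMBA+TAM stands apart. The same split of libraries gives high values for many genes: 1195 other genes exceeded 0.9 with *Cma1* and 1402 with *Cpa3*, but 1 with *Mcpt1*, namely *Pde11a* at 0.902. The genes most like *Kit*, of 326 above 0.9, were *Bace2* at 0.991, *Tspan33* at 0.987 and *Auts2* at 0.986; those most like *Mcpt4* were *F830016B08Rik*, *Sh2b2* and *Tmem221*, most like *Cma1* *Wnt16*, *Ackr2* and *Srgap2*, most like *Tpsb2* *Wisp2*, *Myo9b* and *Glb1l*, most like *Cpa3* *Lpin1* and *B3gnt8*, and most like *Mcpt2* *Fam192a*, *Nadk* and *Fam98c*.

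Of 4 tested genes on a list of other mast cell proteases, 1 was higher and 1 lower in DMBA+TAM against control, shares near the 29% and 35.3% of all genes. *Tpsab1*, the tryptase gene next to *Tpsb2*, had 5 and 16 counts in DMBA+TAM and at most 2 in any other library, a ratio to control of 86.5 (interval 13.9 to 3576). It passed the filter through the DMBA+TAM libraries alone. *Tpsg1*, a membrane-anchored tryptase, had 11.8 and 10.7 normalized CPM in control, 61.4 and 95.5 in DMBA, 17.5 and 20.1 in TAM short, 28.1 and 34.8 in TAM long and no count in DMBA+TAM (edgeR adjusted p = 6.27e-05 against control). *Cma2*, a chymase gene 98.1% identical to *Mcpt9* in coding sequence, was higher in DMBA against control by 3.57 (edgeR adjusted p = 0.00519), with 126 counts in replicate 1 and 25 in replicate 2, and had none in DMBA+TAM; in DMBA its replicate ratio of 0.248 was near those of *Mcpt1* and *Mcpt2*.

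Of 10 genes of the high-affinity IgE receptor and its signalling, 9 were higher and 1 lower in DMBA+TAM against control, beside 29% and 35.3% of all genes, which are also the shares for the lists that follow. Of the genes called higher, *Fcer1a* here, *Alox5ap* and *Ltc4s* among the granule genes, *Tal1* among the transcription factors and *Adora3* among the surface genes passed the filter only through DMBA+TAM, which leaves 8, 6, 3 and 2 genes called higher in these lists without them. *Fcer1g*, the gamma chain that Fc receptors of other leukocytes share, rose by 4.18 (edgeR adjusted p = 2.62e-07) and *Btk*, a kinase of the pathway, by 3.38 (edgeR adjusted p = 8.65e-05), while *Lat*, an adaptor that T cells also use, fell by 2.85 (-2.85, edgeR adjusted p = 0.0141). Of 10 genes of granule storage and mediator synthesis, 8 were higher and none lower. *Hdc*, which makes histamine, had 10 and 16.3 normalized CPM in DMBA+TAM against 1.24 and 0.482 in control (log2 fold change 3.90, edgeR adjusted p = 0.00068), *Hpgds*, a prostaglandin D synthase, rose by 5.11 (edgeR adjusted p = 4.71e-07) and *Srgn*, the granule proteoglycan serglycin, by 3.23 (edgeR adjusted p = 9.63e-06).

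Of 5 tested transcription factors of mast cells, 4 were higher and *Zfpm1*, a GATA cofactor, lower in DMBA+TAM against control. *Mitf*, which drives mast cell genes, rose by 4.17 (edgeR adjusted p = 3.32e-05), *Gata2* by 3.57 (edgeR adjusted p = 0.000285) and *Spi1*, shared by myeloid cells, by 4.97 (edgeR adjusted p = 8.82e-08). *Mitf* and *Gata2* were also higher in DMBA, by 1.77 and 1.56 (edgeR adjusted p = 0.012 and 0.0397), and in TAM long, by 1.71 and 1.64 (edgeR adjusted p = 0.0147 and 0.0323). In DMBA+TAM against DMBA, TAM long and TAM short all 5 factors were higher, beside 25.2%, 25.3% and 29.3% of all genes. Each of these groups had 1 factor lower than control, beside 23.3%, 22.8% and 7.8%. The summed list was 39.2 to 54.2 normalized CPM in control and 138 to 144 in DMBA+TAM. It was 15.9 to 19.4 in DMBA, 13.4 to 16.8 in TAM short and 12.1 to 14.8 in TAM long. Of 5 tested surface genes, 3 were higher and 1 lower in DMBA+TAM; *Il1rl1*, the interleukin-33 receptor, was at -0.12 (edgeR adjusted p = 0.779).

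Markers of other cells moved with the connective tissue proteases. In DMBA+TAM against control, all 6 genes of all leukocytes were higher, with sums of 961 to 1029 normalized CPM against 77.1 to 142 in control and 82.2 to 299 in the other 3 groups. All 8 macrophage genes were higher, with sums of 4068 to 4463 against 151 to 171 in control and 179 to 241 in the others, and all 7 fibroblast genes, with 30806 to 31720 against 1102 to 1269 and 629 to 2032. None of these genes was at 0 in both libraries of a group. Of 3 tested basophil genes 2 were higher: *Mcpt8*, a granule protease of basophils, had 31 counts in each DMBA+TAM library and at most 2 elsewhere, a ratio to control of 128 (interval 33.9 to 1077), and passed the filter through these libraries alone, whereas *Prss34*, another basophil protease, had no count in any library. The sum of the basophil list was 46.5 to 59.5 in DMBA+TAM, 12.6 to 13.7 in control and 14.9 to 24.3 in the others. T cell genes went the other way, with 5 of 7 lower and 1 higher, and *Cd3e*, *Cd3d* and *Cd3g* at 0. The part of these cell types in the protease results was not tested.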

How the data were processed

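Poly-A RNA of 10 organoid libraries was sequenced, and the authors mapped reads with TopHat v2.0.12, counted them per gene with HTSeq v0.6.1 and derived FPKM from gene length and count. The submitters' processing notes name GRCm38.p6. The deposited read counts of 47069 genes (47074 lines, 5 of them broken parts of lines without counts) were used for all tests, and the deposited FPKM for levels per length. The same table also holds fold changes and p-values of the authors' own comparisons, which were not used.

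Counts were fitted with edgeR 4.0.16 in R 4.3.3 (filterByExpr by group, TMM scaling, a mean for each of 5 groups, quasi-likelihood test), with Benjamini-Hochberg adjustment over 16179 genes and a threshold of 0.05. A fold against a group without counts is a bound against 3 counts per library, averaged over the group. Groups followed the labels, with replicate numbers from the labels. The steps were tested on simulated data.

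The genes and the 20 gene lists (123 genes, 2 of them not found by name) were chosen with earlier results of these data known. By the rule the 8 genes are named in every comparison; from other lists, the first gene and up to 4 called genes with the largest change in DMBA+TAM against control, and other genes named were chosen after their values were seen. Likeness is Pearson's r of TMM log2 CPM over 10 libraries. Alternatives were plain library totals, DESeq2 1.42.0, no filter, only the groups compared, the replicate block, limma 3.58.1 on log2(FPKM + 1) or log2(FPKM + 0.1), and each library left out; counts of all called genes under these, beyond library totals and DESeq2, were chosen after seeing the data. Totals of 1592366 to 10923673 counts limit precision most in DMBA+TAM. Coding sequences were aligned with Biopython.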

Additional observations from a re-analysis of the deposited data

Results flagged for a closer look

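TAM long and TAM short, set against the same controls, differed from each other in 2 of the genes by the test of that difference. The TAM long change in *Mcpt1* was lower than the TAM short change by 2.10 on the log2 scale, a difference of -2.10 (edgeR adjusted p = 0.0107), with both TAM short libraries above both TAM long libraries. In the same comparison 6 of 6 genes of all leukocytes and 7 of 7 T cell genes were called lower in TAM long, beside 20.3% of all genes, and their part in the *Mcpt1* difference was not tested. The change in *Kit* was larger in TAM long by 1.74 (edgeR adjusted p = 6.08e-05), with both TAM long libraries above both TAM short libraries. In the same comparison 6 of 6 genes of the Cajal list and 5 of 7 of the colonic list, *Kit* in both, were called higher. Their medians were 2.60 and 1.72, beside 22% of all genes called higher, and the part of these cells in the *Kit* difference was not tested. What short and long refer to is not given in the sources used here, and TAM long shares the letter L in its library names with DMBA. TAM short shares S with control, so what the letters stand for cannot be told apart from the TAM groups in this comparison.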

How the results depend on the processing

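Of 1070 member values under alternatives, 977 kept their direction and side of the threshold, 40 gained a call, 18 lost one and 35 turned in sign. The cause was not tested. In the main fit, shares of all genes called higher against control were 24.5% in DMBA, 6.52% in TAM short and 23.2% in TAM long. Called lower in DMBA+TAM were 35.3% against control, 29.9% against DMBA and against TAM long, and 33.8% against TAM short. In TAM long against TAM short, 22% were higher and 20.3% lower. Shares under the alternatives are not given, so the member counts below are not read as a result. With plain library totals the count of members higher in DMBA was 2 and the count lower in DMBA+TAM against control 0, and *Kit* in DMBA+TAM turned to 0.36 against control and 0.0485 against TAM short. Without a filter on low counts 6 members were higher in DMBA, 2 in TAM short, 2 in TAM long and 3 in TAM long against TAM short, with 2 lower there and 2 lower in DMBA+TAM against TAM short. With only the 2 groups compared, 2 members were higher in TAM short, 2 lower in DMBA+TAM and 2 lower in TAM long, both against TAM short, and 4317 genes were called in TAM short against 2317. DESeq2 gave 2 members higher in DMBA. Limma gave 0 members higher in TAM short with either pseudocount and put *Kit* in DMBA+TAM at 0.29 and 0.35 against control and at 0.0300 and 0.0343 against TAM short, and *Ms4a2* with the smaller one at -0.30, -0.54, -0.29 and -0.68 against control, DMBA, TAM long and TAM short. With *Cpa3* added, the mucosal share was 86.2% in control, 73.6% in DMBA, 95.4% in TAM short, 78.3% in TAM long and 16.7% in DMBA+TAM.

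No label ties a replicate number of one group to that of another. Differences of replicate 1 from 2 had correlations of -0.041 to 0.26 between groups, the highest for DMBA with TAM long. The replicate block gave 3 members higher in DMBA, 2 in TAM long and 2 lower in DMBA+TAM against TAM short, and *Mcpt1* at -0.0108 in TAM long.

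Plain library totals moved the median of all genes to 0.38 in DMBA, 0.04 in TAM short, 0.37 in TAM long and 0.31 in DMBA+TAM against control, to 0.27 in TAM long and 0.26 in DMBA+TAM against TAM short, and to 0.04 and 0.03 in DMBA+TAM against DMBA and TAM long. The share of calls that were higher went from 51.2% to 71.2% in DMBA, from 45.5% to 58.6% in TAM short, from 50.5% to 72.1% in TAM long and from 45.1% to 62.5% in DMBA+TAM, and against TAM short from 52.0% to 69.9% in TAM long and from 46.4% to 61.5% in DMBA+TAM.

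Leaving out a library in turn, members higher ranged from 1 to 3 in DMBA (most without DMBA replicate 2), 0 to 2 in TAM short, 1 to 2 in TAM long and 1 to 2 in TAM long against TAM short. Members lower ranged from 0 to 1 in DMBA+TAM against control, 1 to 2 against each of the other groups, and 0 to 2 in TAM long against TAM short. Genes called ranged from 669 (without TAM short replicate 2) to 3061 in TAM short, 4946 (without control replicate 2) to 8090 in TAM long, and 4258 (without TAM short replicate 2) to 7541 in TAM long against TAM short. In DMBA, *Mcpt1* ranged from -0.41 to 1.61 and *Mcpt2* from -0.68 to 1.60, both lowest without DMBA replicate 1, and *Ms4a2* from -1.20 to 0.87. In TAM long, *Mcpt1* ranged from -0.54 to 0.47, *Mcpt2* from -0.42 to 0.80, *Mcpt4* from -0.88 to 1.65, *Cma1* from -1.29 to 1.90 and *Ms4a2* from -0.99 to 0.28. *Ms4a2* ranged from -0.14 to 0.92 in TAM short, and in DMBA+TAM from -5.24 to 1.28 against control, -5.47 to 1.59 against DMBA, -4.89 to 1.63 against TAM long and -5.54 to 0.97 against TAM short, each lowest without DMBA+TAM replicate 2. In DMBA+TAM, *Kit* ranged from -0.35 to 0.0488 against control and *Mcpt1* from -0.57 to 1.45 against DMBA. In TAM long against TAM short, *Mcpt4* ranged from -1.67 to 0.0606, *Tpsb2* from -2.24 to 5.43 and *Cpa3* from -0.10 to 0.44.

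A group left with 1 library is assumed to vary like the others. With 3 counts standing for up to 1.58 normalized CPM in DMBA+TAM, lower levels of *Mcpt2* and *Ms4a2* there are not detectable.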

Other observations

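Of 9 tested genes for signals that bring mast cells to a tissue or sustain them, 3 were higher and 3 lower in DMBA+TAM against control, shares near the 29% and 35.3% of all genes. *Kitl*, which encodes stem cell factor, the ligand of Kit, fell by 1.13 on the log2 scale (edgeR adjusted p = 7e-05), and *Itgb6*, an epithelial integrin subunit that activates TGF-beta, fell by 4.61. The chemokine *Ccl2* rose by 7.06, *Cxcl12* by 3.28 and *Il33*, an alarmin that acts on mast cells, by 2.16, and all 4 of these changes after *Kitl* passed the test (edgeR adjusted p from 1.33e-07 to 0.00021). Of 4 tested neutrophil genes, 3 were called higher in DMBA+TAM, of which *S100a8* and *S100a9* passed the filter on low counts only through DMBA+TAM, with sums of 83.3 to 104 normalized CPM against 1.08 to 1.81 in control, 7.95 to 62.8 in DMBA and 16.1 to 40.2 in TAM long, and 3 genes of that list were at 0 in both DMBA+TAM libraries. Of 2 tested eosinophil genes none passed, with sums of 1.58 to 3.08 against 1.36 to 1.57.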
